A study of Mus musculus with 2 samples.

Results

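The let-7 family is described here by its guide strands in tumor-associated macrophages (TAMs) and in spleen macrophages (SMs) of BALB/c mice. The members are the 9 rows of the deposited table named mmu-let-7a-5p, mmu-let-7b-5p, mmu-let-7c-5p, mmu-let-7d-5p, mmu-let-7e-5p, mmu-let-7f-5p, mmu-let-7g-5p, mmu-let-7i-5p and mmu-miR-98-5p, out of 717 mature miRNAs analysed. They were chosen by name, and the same 9 rows are the ones in the table that carry the bases GAGGUAG at positions 2 to 8, the let-7 seed. TAMs came from tumors of the mouse mammary carcinoma line 4T1, injected into the mammary fat pad of 8-week-old female mice and harvested after 3 weeks, where red blood cells were lysed and cells then bound to CD11b beads. As monocytes, neutrophils and NK cells also have CD11b, the selected cells can include them. SMs came from the spleen of naïve mice without a tumor. The study's mice were bought at 6 to 8 weeks of age, and the age of the naïve mice at harvest is not stated separately. Neither the method by which the spleen cells were selected nor the number of mice behind each library is stated. Small RNA libraries were made from 3 µg of total RNA, 1 library per group. Therefore the groups could not be tested against each other, and every difference below compares these libraries.

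let-7 was among the first miRNAs found, in the worm, where it times late larval development. In mammals its members share a seed, the stretch that pairs with target mRNAs, and are largely expected to repress overlapping targets, among them Hmga2, Lin28 and Ras family mRNAs. Lin28 proteins block the processing of let-7 precursors, and mature let-7 is low in embryonic cells and abundant in most differentiated tissues, where it is regarded as a brake on growth. In macrophages, let-7 members are known to act on cytokine mRNAs such as Il6 and on the receptor Tlr4.

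The mature guide strands, all 22 bases long, are shown because the members are told apart only outside the seed. The sequences are those of RefSeq on GRCm38.p6, matched by miRNA name for 9 of 9 members, and 9 of 9 are identical to the sequences in the deposited table. Capitals mark the seed, bases 2 to 8.
let-7a-5p: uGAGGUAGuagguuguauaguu
let-7c-5p: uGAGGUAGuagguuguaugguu
let-7b-5p: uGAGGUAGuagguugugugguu
let-7e-5p: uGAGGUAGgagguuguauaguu
let-7f-5p: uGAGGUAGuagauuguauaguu
let-7d-5p: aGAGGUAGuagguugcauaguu
miR-98-5p: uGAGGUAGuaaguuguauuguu
let-7g-5p: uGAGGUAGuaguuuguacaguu
let-7i-5p: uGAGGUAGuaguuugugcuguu

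Counted from 1 at the 5′ end and with the base of let-7a-5p first, let-7c-5p differs from let-7a-5p by A19G, let-7e-5p by U9G and let-7f-5p by G12A. let-7b-5p carries A17G beside A19G and so differs from let-7c-5p by a single base. Of 36 pairs of members, 4 differ by 1 base and 10 by 2 bases. The 4 close pairs link let-7a, let-7b, let-7c, let-7e and let-7f into 1 group whose reads could be exchanged, though not every pair in it is 1 base apart. let-7d, let-7g, let-7i and miR-98 differ from every other member by 2 or more bases. The deposited counts had a variant of 2 bp added. Whether this lets members that are 2 bases apart exchange reads was not tested.

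The reads of known miRNAs came to 7333652 in TAMs and 10108834 in SMs. The authors divided each count by a larger total, 13324721 reads for TAMs and 15422872 for SMs, and gave the result as TPM, a read count scaled to a common total and not corrected for length, so that a single read stood for 0.0750 TPM in the TAMs library and 0.0648 TPM in the SMs library. Ratios below are TPM in TAMs over TPM in SMs, with an exact 95% interval computed from the counts. Such intervals hold counting error and nothing else, and PCR copies are not independent molecules. Both libraries held all 4 listed miRNAs of myeloid cells, both strands of miR-223 and of miR-142, summing to 7752 TPM in TAMs, against 34561 TPM in SMs. All 4 were lower in TAMs, at ratios from 0.126 to 0.348. The other marker lists also differed between the libraries, and no listed marker was at 0 in either. All 7 epithelial miRNAs were higher in TAMs (1897 TPM summed, against 284 TPM in SMs), while both lymphocyte miRNAs (1160 TPM, against 3989 TPM in SMs) and all 4 miRNAs of red blood cells (1376 TPM, against 6022 TPM in SMs) were lower. Of 5 stromal miRNAs 4 were higher and 1 was slightly lower, at ratios from 0.987 to 12.1. Their sums, 2617 TPM in TAMs against 2452 TPM in SMs, do not show this spread. Both endothelial miRNAs were slightly higher, with 406 TPM summed in TAMs, against 343 TPM in SMs. The part of these cells in the let-7 values was not tested. In bulk RNA, fewer cells of a type and less of a miRNA per cell cannot be told apart.

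By TPM and by share of all miRNA reads, the pool of let-7 seeds was of similar size in both libraries. The 9 guide strands together had 267198 reads or 20053 TPM in TAMs, against 347674 reads or 22543 TPM for SMs. The ratio of TPM was 0.890 (0.885 to 0.894). As a share of all miRNA reads the pool held 3.64% in TAMs (exact Clopper-Pearson 95% interval 3.63 to 3.66%) and 3.44% in SMs (3.43 to 3.45%), a ratio of 1.06. The direction of the small difference in pool size thus turned with the total used, because miRNAs made up 55.0% of the authors' total in TAMs and 65.5% in SMs. Larger differences were seen for let-7b-5p, let-7c-5p, let-7e-5p, let-7f-5p, let-7g-5p and miR-98-5p. Those of let-7a-5p (ratio of TPM 0.865), let-7d-5p (0.935) and let-7i-5p (1.14) were of similar size to that of the pool.

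The make-up of the pool also differed between the libraries. let-7f-5p was the most abundant member of both libraries, with 35.5% of the pool in TAMs and 44.1% in SMs. Next came, in TAMs, let-7i-5p (19.2%), let-7a-5p (16.2%) and let-7c-5p (12.4%), and, in SMs, let-7a-5p (16.6%), let-7i-5p (15.0%) and let-7g-5p (12.8%). let-7c-5p held only 4.59% of the pool in SMs, and let-7g-5p only 7.51% in TAMs. The 4 leading members had 83.3% of the pool in TAMs and 88.6% in SMs. To turn the make-up of the SMs pool into that of the TAMs pool, 15.2% of its reads would have to change member. Counted as the number of equally abundant members that would give the same Shannon diversity, the pool had 5.91 members in TAMs and 4.97 in SMs. Within each library every neighboring pair in the order of levels differed by more than counting error. The closest pairs were let-7b-5p over miR-98-5p in TAMs, at a ratio of counts of 1.06 (1.02 to 1.10), and miR-98-5p over let-7d-5p in SMs, at 1.05 (1.02 to 1.07). Since the ligation of adapters depends on sequence, the order of members by reads may not be their order in the cells. This bias was not measured.

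**Figure D1:**
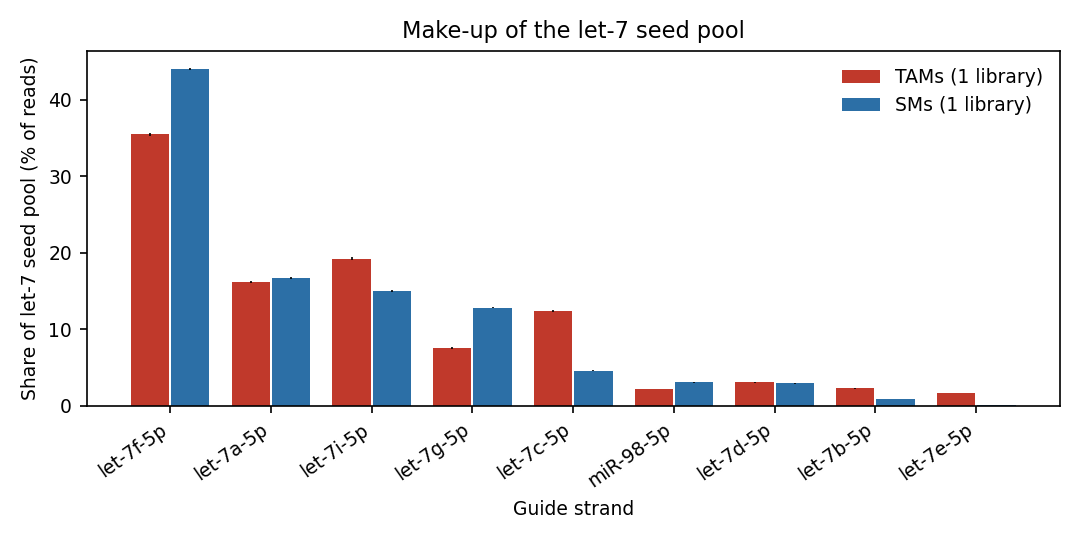
Share of each guide strand in the let-7 seed pool, in percent of the pool's reads, in TAMs (left bars) and SMs (right bars), with exact 95% counting intervals as error bars. let-7f-5p held 35.5% in TAMs and 44.1% in SMs, let-7c-5p 12.4% in TAMs and 4.59% in SMs, and let-7e-5p 1.66% in TAMs and 0.0639% in SMs.

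let-7b-5p, let-7c-5p and let-7e-5p, 3 of the 9 members, were at least 2-fold higher in TAMs on the scale of TPM + 1, and 0 were at least 2-fold lower. Among the 264 miRNAs that reached 10 TPM in either library, 24.2% were higher by this measure and 32.6% lower. With so few members, 3 of 9 is close to the share of all miRNAs that were higher. The median log2 ratio of TPM + 1 was −0.10 over the 9 members and −0.36 over the 264 miRNAs, and the members ran from −0.94 to 4.44. At a threshold of 1.5-fold the same 3 members were higher, against 31.4% of all miRNAs, and let-7g-5p and miR-98-5p were lower, against 42.0% of all miRNAs.

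**Figure D2:**
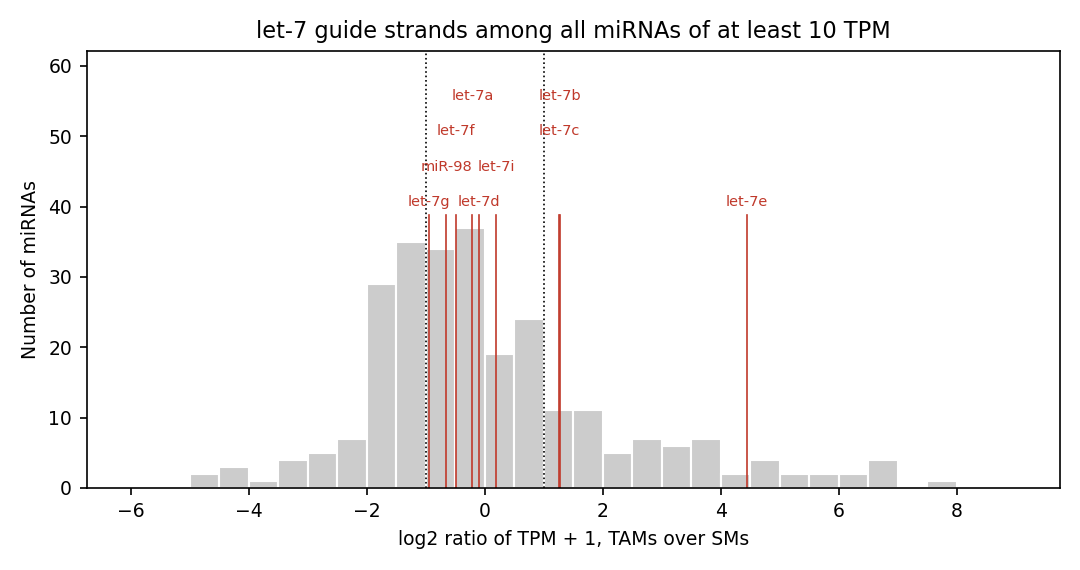
Histogram of the log2 ratio of TPM + 1 (TAMs over SMs) of the 264 miRNAs with at least 10 TPM in either library, with a red line at the value of each let-7 guide strand and dotted lines at 2-fold in either direction. let-7e-5p, at 4.44, lies far to the right of the other members, which run from −0.94 to 1.28.

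let-7e-5p, known as a repressor of Tlr4 in mouse macrophages, had the largest difference of the family. It had 4441 reads or 333 TPM in TAMs, against 222 reads or 14.4 TPM in SMs, a ratio of 23.2 (20.2 to 26.6). By abundance it ranked 76th in TAMs and 214th in SMs, and 16 of the 264 miRNAs, itself included, had a log2 ratio at least as high. Even in TAMs it was the least abundant member, with 1.66% of the pool. Its hairpin Mirlet7e occupies bases 17830352 to 17830444 of chromosome 17 (GRCm38, plus strand) within an intron of Spaca6, between the hairpins of miR-99b and miR-125a. These neighbors differed in the same direction. miR-99b-5p had a ratio of 21.2 (20.9 to 21.5) and miR-125a-5p one of 13.8 (12.5 to 15.3). Their 3p strands had higher ratios on few reads in SMs. miR-99b-3p, with 243 reads in TAMs and 5 in SMs, had a ratio of 56.3 (23.8 to 175). miR-125a-3p, with 166 reads in TAMs and 3 in SMs, had one of 64.0 (21.5 to 314). Each read of let-7e-5p was accompanied by 97.6 reads of miR-99b-5p in TAMs (94.7 to 100.5) and by 106 in SMs (93.3 to 122), so that the proportion of these strands of a shared cluster did not differ beyond counting error. For miR-125a-5p the proportion was 1.12 (1.08 to 1.17) in TAMs and 1.88 (1.59 to 2.22) in SMs, and these intervals do not overlap. let-7e-5p is 1 base from let-7a-5p, and its reads came to 10.3% of those of let-7a-5p in TAMs and to 0.384% in SMs. How many of the 222 reads in SMs are misread let-7a-5p was not tested.

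let-7b-5p and let-7c-5p, of which let-7c is known to favor alternative activation of mouse macrophages, were higher in TAMs to nearly the same degree. let-7c-5p had 33057 reads or 2481 TPM in TAMs, against 15948 reads or 1034 TPM in SMs, a ratio of 2.40 (2.35 to 2.45). let-7b-5p had 6144 reads or 461 TPM in TAMs, against 2929 reads or 190 TPM in SMs, a ratio of 2.43 (2.32 to 2.54). There were 5.38 reads of let-7c-5p for each read of let-7b-5p in TAMs (5.24 to 5.53) and 5.44 in SMs (5.23 to 5.67). They share a hairpin cluster on chromosome 15, where Mirlet7c-2 lies from 85706603 to 85706697 and Mirlet7b from 85707319 to 85707403, both on the plus strand across exons of the noncoding gene Lncppara. let-7c-5p is also encoded by Mirlet7c-1 on chromosome 16, from 77599657 to 77599750 on the plus strand in an intron of the noncoding host gene Mir99ahg, so its reads cannot be given to either locus. Of the miRNAs beside Mirlet7c-1, miR-99a-5p had a ratio of 2.84 (2.73 to 2.95) and miR-125b-2-3p one of 4.86 (4.03 to 5.89). The guides let-7b-5p and let-7c-5p are the members with A19G, and they lie 1 base apart, so that reads could be exchanged between them and, at that base near the 3′ end, between let-7c-5p and let-7a-5p.

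let-7i-5p and let-7g-5p, each the single let-7 of its locus and similar in sequence, went apart. let-7i-5p had 51431 reads or 3860 TPM in TAMs, against 52155 reads or 3382 TPM in SMs, a ratio of 1.14 (1.13 to 1.16). let-7g-5p had 20066 reads or 1506 TPM in TAMs, against 44653 reads or 2895 TPM in SMs, and was 1.92-fold lower in TAMs (1.89 to 1.95), the largest deficit of the family. let-7i-5p thus had 2.56 reads for each read of let-7g-5p in TAMs (2.52 to 2.61) and 1.17 in SMs (1.15 to 1.18), a comparison that does not depend on library totals. Mirlet7g lies in an intron of Wdr82 on the plus strand of chromosome 9 from 106178840 to 106178927. Mirlet7i lies on the minus strand of chromosome 10 from 122985640 to 122985724, across an exon of the transcribed pseudogene D630033A02Rik.

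let-7f-5p was lower in TAMs, and so was miR-98-5p, which is known to repress Il10 mRNA in macrophages. let-7f-5p had 94816 reads or 7116 TPM in TAMs, against 153199 reads or 9933 TPM in SMs, and was 1.40-fold lower (1.38 to 1.41). It ranked 13th among all miRNAs of TAMs and 12th among those of SMs. miR-98-5p had 5797 reads or 435 TPM in TAMs, against 10575 reads or 686 TPM in SMs, and was 1.58-fold lower (1.53 to 1.63). Mirlet7f-2 and Mir98 share an intron of the ubiquitin ligase gene Huwe1 on the plus strand of chromosome X, from 151912346 to 151912428 and from 151913214 to 151913321. let-7f-5p is also encoded by Mirlet7f-1 on chromosome 13, from 48537829 to 48537917 on the minus strand.

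let-7a-5p and let-7d-5p were slightly lower in TAMs in TPM but slightly higher per counted miRNA read. let-7a-5p had 43274 reads or 3248 TPM in TAMs, against 57876 reads or 3753 TPM in SMs, a ratio of 0.865 (0.855 to 0.876). let-7d-5p, the member with U1A, had 8172 reads or 613 TPM in TAMs, against 10117 reads or 656 TPM in SMs, a ratio of 0.935 (0.908 to 0.963). Both ratios were above 1 when scaled to counted miRNA reads, at 1.03 for let-7a-5p and 1.11 for let-7d-5p, so their direction is not settled. Mirlet7a-1 (48538179 to 48538272), Mirlet7f-1 and Mirlet7d (48536012 to 48536114) lie together on the minus strand of chromosome 13 across exons of the long noncoding gene 6720427I07Rik. let-7a-5p is encoded a second time by Mirlet7a-2 on chromosome 9, from 41536716 to 41536811 on the plus strand in introns of 3110039I08Rik and Gm49317, beside the hairpins of miR-100 and miR-125b-1. Here the guide and its neighbors differed widely. miR-100-5p had a ratio of 78.7 (73.9 to 83.9) and miR-125b-1-3p one of 184 (124 to 284), and there were 1.55 reads of miR-100-5p per read of let-7a-5p in TAMs (1.53 to 1.57) against 0.0170 in SMs (0.0160 to 0.0181). As let-7a-5p sums reads of both its loci, the share of Mirlet7a-2 in it is not known.

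**Figure D3:**
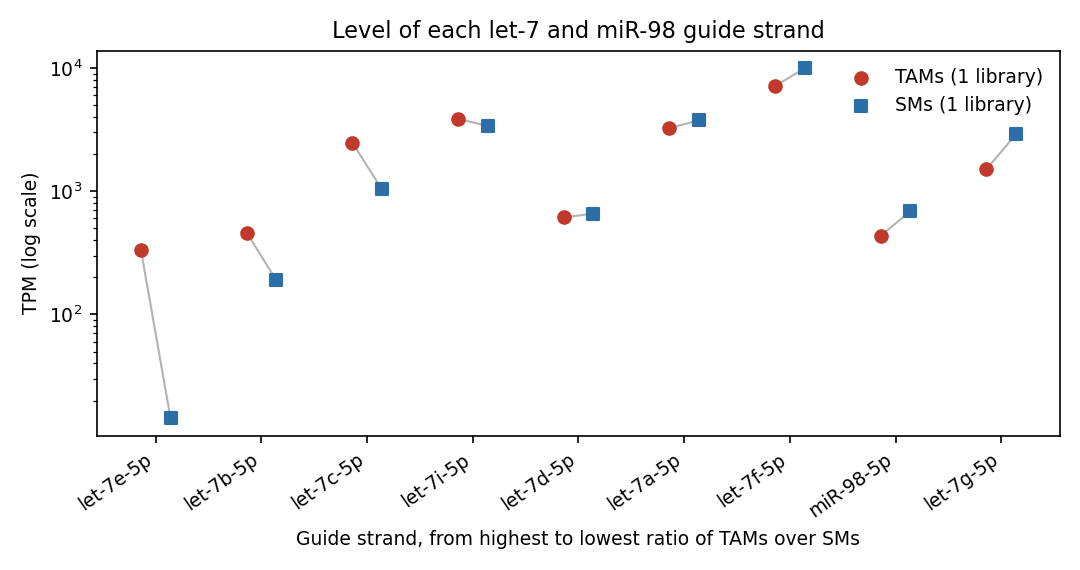
Level of each guide strand in TPM on a log axis, in TAMs (red circles) and SMs (blue squares), 1 library each, ordered from the highest to the lowest ratio. At the left end let-7e-5p lay at 333 TPM in TAMs, against 14.4 TPM in SMs. At the right end let-7g-5p lay at 1506 TPM in TAMs, against 2895 TPM in SMs.

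By locus, the 9 guides come from 12 hairpins in 8 clusters or single loci, and each of the 12 hairpins holds the sequence of its guide. let-7a-5p, let-7c-5p and let-7f-5p, each with 2 loci, held 64.1% of the pool in TAMs and 65.3% in SMs, so that most of the pool cannot be given to 1 locus. The cluster of let-7a-1, let-7f-1 and let-7d could have given from 3.06% of the pool, if let-7d-5p alone is counted, to 54.7% in TAMs, and from 2.91 to 63.6% in SMs. For the Huwe1 intron the limits were 2.17 and 37.7% in TAMs and 3.04 and 47.1% in SMs. For the cluster of let-7c-2 and let-7b they were 2.30 and 14.7% in TAMs and 0.842 and 5.43% in SMs. The clusters with miR-100 and miR-99a could have given at most 16.2 and 12.4% in TAMs, and at most 16.6 and 4.59% in SMs. When the 5 members linked by 1-base differences were counted together, they held 68.0% of the pool in TAMs (67.8 to 68.2%) and 66.2% in SMs (66.0 to 66.4%). In this group let-7b, let-7c and let-7e gained 10.8 percentage points of the pool together in TAMs. The difference, TAMs minus SMs, was −8.58 points for let-7f and only −0.451 points for let-7a. However, let-7f is 2 bases from let-7c and from let-7e, and 3 bases from let-7b. Whether reads passed between these members was not tested.

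Passenger strands, the 3p arms that are mostly discarded, carry bases that tell the loci apart and gave a second reading of some of them. The table held 11 passenger rows of the family with 10 distinct sequences, since let-7a-1-3p and let-7c-2-3p are the same molecule and were given the same 137 reads in TAMs and 241 in SMs. They are shown with let-7c-1-3p, let-7b-3p, let-7e-3p and the passengers of let-7f because these strands separate loci that the guides do not, or have a sequence of their own beside a guide that was higher in TAMs. No value was analysed here for let-7a-2-3p.
let-7a-1-3p: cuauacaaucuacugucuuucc
let-7c-2-3p: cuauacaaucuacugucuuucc
let-7c-1-3p: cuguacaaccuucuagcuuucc
let-7b-3p: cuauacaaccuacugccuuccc
let-7e-3p: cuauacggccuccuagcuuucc
let-7f-1-3p: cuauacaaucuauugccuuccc
let-7f-2-3p: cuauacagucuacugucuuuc

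For 5 of the 6 guides with a single locus, the interval of the passenger's ratio held the guide's ratio. let-7e-3p had 34 reads in TAMs and 4 in SMs, a ratio of 9.84 (3.51 to 38.2). An interval this wide holds many ratios, so it says little on whether let-7e-3p followed its guide. let-7b-3p had 48 reads in TAMs and 21 in SMs, a ratio of 2.65 (1.55 to 4.65). let-7g-3p, with 48 reads in TAMs and 95 in SMs, had a ratio of 0.585 (0.404 to 0.836), and let-7i-3p, with 333 reads in TAMs and 353 in SMs, one of 1.09 (0.937 to 1.27). The exception was miR-98-3p, with 49 reads in TAMs and 171 in SMs, whose ratio of 0.332 (0.236 to 0.458) lay below that of its guide. miR-98-5p had 118 reads per passenger read in TAMs (89.4 to 160) and 61.8 in SMs (53.2 to 72.4).

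The passenger of let-7d stood apart from the others by its level. let-7d-3p had 3139 reads or 236 TPM in TAMs, against 3889 reads or 252 TPM in SMs, a ratio of 0.934 (0.891 to 0.979). It made up 81.1% of the family's passenger reads in TAMs and 80.2% in SMs. let-7d-5p had only 2.60 reads per passenger read in TAMs (2.50 to 2.71) and 2.60 in SMs (2.51 to 2.70), where the other 5 guides with a single locus had at least 118 in TAMs and at least 55.5 in SMs. The value of 55.5 is that of let-7e-5p and rests on 4 passenger reads (21.4 to 205).

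The passengers of the guides with 2 loci did not all follow their guides. The shared sequence of let-7a-1-3p and let-7c-2-3p had a ratio of 0.658 (0.530 to 0.815). Of its possible guides, let-7a-5p was likewise below 1 in TPM (0.865), whereas let-7c-5p was above 1 (2.40). The reads of this shared sequence cannot be divided between Mirlet7a-1 and Mirlet7c-2, so they do not show whether let-7c-2-3p followed its guide. let-7c-1-3p, of the cluster with miR-99a, had 1 read in TAMs and 0 in SMs, which allows up to 0.195 TPM in SMs, the level of 3 counts. let-7f-1-3p, with 64 reads in TAMs and 44 in SMs, had a ratio of 1.68 (1.13 to 2.53), above 1 although let-7f-5p was lower in TAMs. let-7f-2-3p, with 17 reads in TAMs and 32 in SMs, had one of 0.615 (0.320 to 1.14). Of the reads of both let-7f passengers, let-7f-1-3p held 79.0% in TAMs (exact Clopper-Pearson 95% interval 68.5 to 87.3%) and 57.9% in SMs (46.0 to 69.1%). These intervals overlap slightly, which does not settle whether the shares differ. Reads per passenger read differed widely between the guides with a single locus. The make-up of let-7f-5p by locus therefore could not be read from these low passenger counts.

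**Figure D4:**
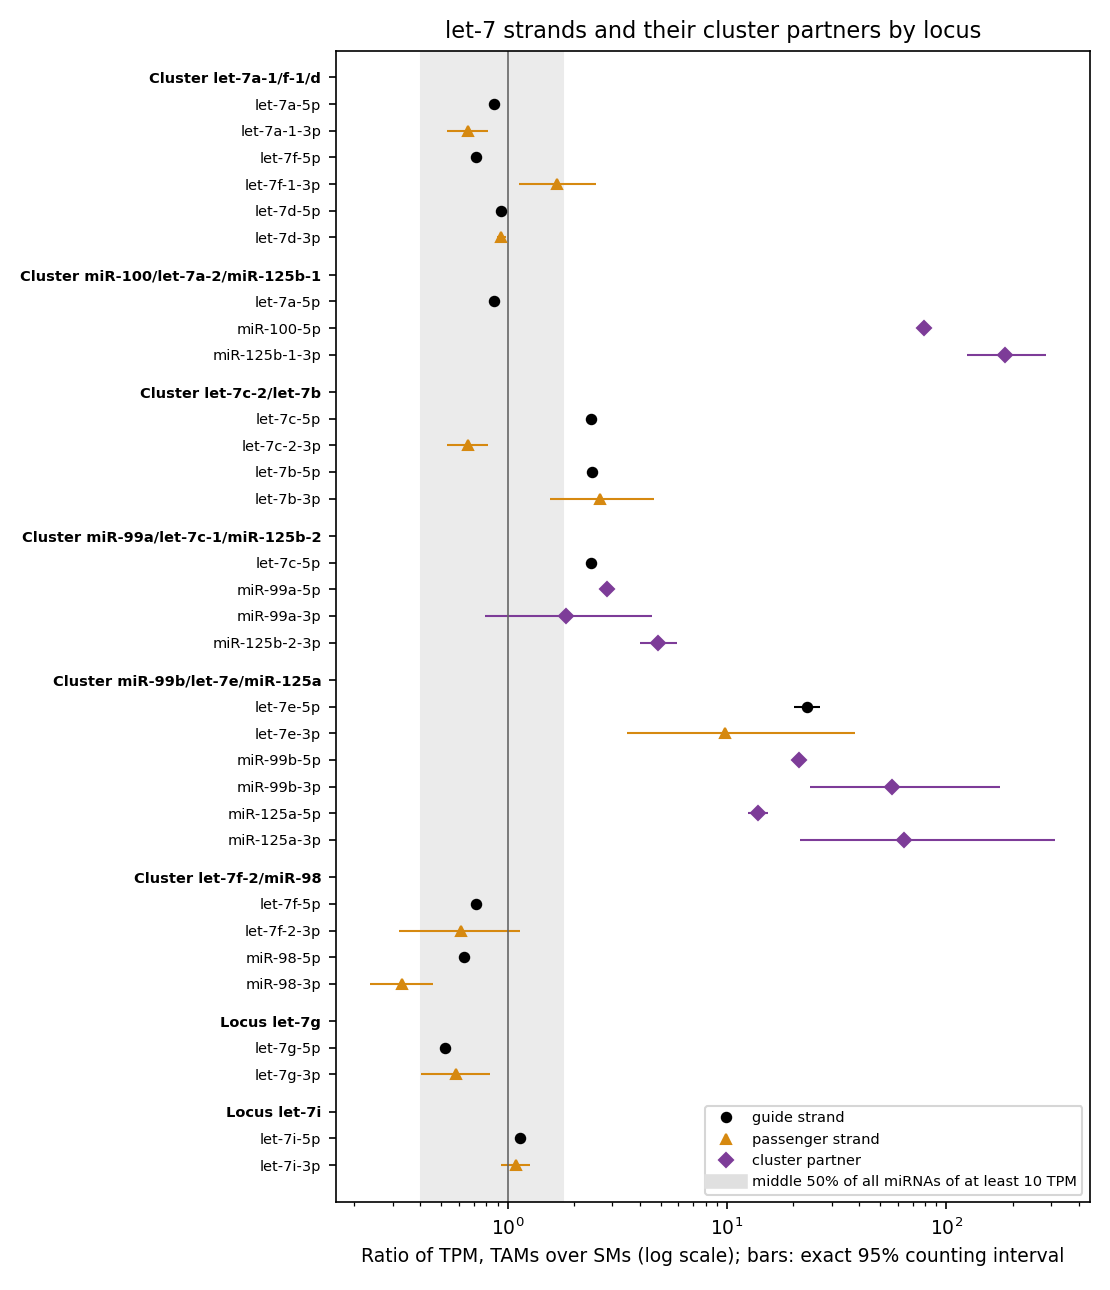
Ratio of TPM, TAMs over SMs, on a log axis for the guide strands (black circles), passenger strands (orange triangles) and cluster partners (purple diamonds) of each let-7 locus, with exact 95% counting intervals and a grey band over the middle 50% of all miRNAs with at least 10 TPM, taken on TPM + 1. Guides with 2 loci are drawn at both, and strands without a read in SMs are left out. let-7e-5p (23.2) lies near miR-99b-5p (21.2), whereas let-7a-5p (0.865) lies far below miR-100-5p (78.7).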

How the data were processed

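There was 1 small RNA library of TAMs and 1 of SMs. For each known mature miRNA the authors deposited a raw count, with a variant of 2 bp added, and a TPM, the count scaled to a total larger than the sum of miRNA counts. Bowtie2 is named in the submitters' processing notes. Genome build and miRBase release: not given in the sources used here. The deposited ratio, chi-square p-value and mark columns were not used, and 2 lines were not analysed here. Ratios of TPM have exact conditional binomial intervals and shares exact Clopper-Pearson intervals (Python 3.11.15, numpy 2.4.6, scipy 1.17.1, pandas 2.3.3, matplotlib 3.10.9), tested on simulated data. Calls at 2-fold used log2(TPM + 1) and a minimum of 10 TPM in either library. Scaling alternatives used edgeR 4.0.16 and DESeq2 1.42.0 in R 4.3.3. Named were all members, their passenger strands, most of their cluster partners, and marker lists. Members and lists were chosen with earlier results of these data known. Sequences and hairpins came from RefSeq (GRCm38.p6) and overlapping genes from GENCODE M21.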

Additional observations from a re-analysis of the deposited data

How the results depend on the processing

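No paired analysis was possible because TAMs and SMs have a single library each. The ratio of the let-7 pool, 0.890, was 0.944 with TMM factors, 0.932 with size factors of DESeq2, 0.803 when the 10 leading miRNAs of each library were taken out of the totals, and 1.06 when scaled to counted miRNA reads. The last 2 shift every log2 ratio by −0.15 and 0.25. Without let-7f-5p the ratio was 1.03, and without let-7e-5p 0.875. The pool's share of miRNA reads, 3.64% in TAMs and 3.44% in SMs, was 16.5% in TAMs and 13.2% in SMs with those leading miRNAs taken out, and 2.01% in TAMs and 2.25% in SMs of the authors' total. The count of 3 members at least 2-fold higher was the same under each alternative, whereas the count of 0 lower members became 1 (let-7g-5p) with those totals and 2 at 1.5-fold. Without the filter on low values, 102 of 717 miRNAs (14.2%) were at least 2-fold higher and 115 (16.0%) lower, against 64 of 264 (24.2%) higher and 86 (32.6%) lower with it. Of 36 ratios of single members under other scalings, 33 left the counting interval, and none of let-7b, let-7c and let-7e changed direction, while let-7a-5p and let-7d-5p crossed 1 when scaled to counted miRNA reads. The shares of members within the pool do not depend on scaling.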

Other observations

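Among 54 other miRNAs that reached 1000 TPM in either library, those with the ratio nearest to that of the let-7 pool (0.890) were miR-27a-3p at 0.908 (0.893 to 0.923), miR-25-3p at 0.834 (0.824 to 0.844) and miR-92a-3p at 0.827 (0.817 to 0.837). With 2 libraries, likeness means only a similar ratio. The table also lists let-7j, which lacks the let-7 seed, with 4 reads in TAMs and 8 in SMs.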
